A study of Mus musculus with 24 samples.

Results

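The prostaglandin and leukotriene genes described here were 10 genes chosen by name: the cyclooxygenases Ptgs1 and Ptgs2, the terminal synthases Ptges and Hpgds, the degrading enzyme Hpgd, the prostaglandin E2 receptor genes Ptger2 and Ptger4, and the lipoxygenase genes Alox5, Alox5ap and Alox15. They were the rows of the expression table whose Ensembl identifier, without its version, carried one of these symbols. All 10 were among the 17301 genes of the table, and all 10 were among the 12878 genes with at least 1 RPKM (reads scaled for gene length and library size) on average in some group, which were tested. Alox15 passed that limit through a single library. All 10 are annotated as protein-coding genes on GRCm38 (GENCODE M21). The prostaglandin genes are Ptgs1 at chr2:36230426-36252272, Ptgs2 at chr1:150100031-150108227, Ptges at chr2:30889471-30929863, Hpgds at chr6:65117293-65144908, Hpgd at chr8:56294585-56321043, Ptger2 at chr14:44988195-45003820 and Ptger4 at chr15:5206661-5244187. The lipoxygenase genes are Alox5 at chr6:116410077-116461178, Alox5ap at chr5:149264767-149288153 and Alox15 at chr11:70344152-70352031.

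RNA-seq was performed on myeloid cells sorted from mouse colon, in 8 groups of 3 libraries. Lamina propria (LP) cells came from colons labelled healthy, of the strain labelled C57/BL. Tumoural cells came from colon tumours of mice of the strain labelled APC/Min, which carry the ApcMin/+ mutation, had been given dextran sodium sulphate (DSS), a colitis-inducing polymer, for 1 week, and were killed 4 weeks later. Mice were 3 to 4 months old, and each library was a pool of 13 to 15 mice. From each tissue, 4 populations were sorted: F4/80hiMHCIIhi macrophages, F4/80hiMHCIIlow macrophages, Ly6ChiMHCII- monocytes and Ly6GhiF4/80-CD11b+ neutrophils. The study's text describes DSS for wild-type control mice as well, whereas the labels of the LP samples call the tissue healthy, so the treatment of the LP mice could not be settled. The LP and the tumours were also digested by different protocols, with an EDTA step for the LP and a different density gradient for the tumours. A tumour against LP comparison therefore compares tissue, genotype, digestion and possibly DSS at once, and these cannot be told apart. In sorted bulk samples, fewer cells that use a gene and less of its RNA per cell cannot be told apart either.

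Prostaglandins and leukotrienes are lipid mediators made from arachidonic acid that phospholipases release from membranes. Cyclooxygenases turn it into prostaglandin H2, from which a terminal synthase makes prostaglandin E2, prostaglandin D2, prostacyclin or thromboxane. 5-lipoxygenase, with its activating protein, makes leukotriene A4 instead, the precursor of the neutrophil attractant leukotriene B4. In the colon, prostaglandin E2 made through the inducible cyclooxygenase is known for promoting adenoma growth, and 15-hydroxyprostaglandin dehydrogenase for inactivating it.

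The libraries held between 12838061 and 41718078 reads on genes, with a median of 26389148. The library sizes behind the RPKM values were 0.466 to 1.51 times these counts, and lowest for neutrophils, so comparisons of neutrophils with other cells depend on this scaling. The macrophage and neutrophil markers followed the sort. Summed macrophage markers were 3471 to 7455 RPKM in the macrophage libraries and at most 807 RPKM elsewhere. Summed neutrophil markers were 11600 to 30620 RPKM in the neutrophil libraries and at most 301 RPKM elsewhere. The monocyte markers did not set monocytes apart from neutrophils. Their sum was 411.8 to 549.3 RPKM in LP monocytes and 572.5 to 610.6 RPKM in LP neutrophils. In tumours it was 658.4 to 891.5 RPKM in monocytes and 755.2 to 997.5 RPKM in neutrophils. The LP MHCIIlow library of donor II stood apart, with summed monocyte markers at 452 RPKM against 123 and 140 RPKM in the other two. Summed B or plasma cell markers were 156 to 575 RPKM in LP monocytes and at most 3.04 RPKM in tumoural monocytes, and 356 to 1293 RPKM against at most 19.9 RPKM in neutrophils. Summed fibroblast markers were likewise 13.2 to 28.8 RPKM in LP monocytes and at most 0.174 RPKM in tumoural monocytes, and 20.7 to 40.3 RPKM against at most 1.56 RPKM in neutrophils. Summed epithelial markers were 168 to 342 RPKM in tumoural neutrophils against 16.2 to 74.3 RPKM in LP neutrophils.

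The promoters of 3 members are printed to show both cyclooxygenase genes, which are compared within libraries here, and Hpgds, whose tumour effect differed between macrophages and monocytes. Each runs from 250 bases before to 50 bases after the RefSeq transcription start, 5′ to 3′ in the gene's direction, on build GRCm38.p6. Ptgs1 lies on the plus strand at chr2:36230176-36230475, Ptgs2 on the plus strand at chr1:150099781-150100080, and Hpgds on the minus strand at chr6:65144681-65144980. Capitals mark matches to the motifs searched.
Ptgs1: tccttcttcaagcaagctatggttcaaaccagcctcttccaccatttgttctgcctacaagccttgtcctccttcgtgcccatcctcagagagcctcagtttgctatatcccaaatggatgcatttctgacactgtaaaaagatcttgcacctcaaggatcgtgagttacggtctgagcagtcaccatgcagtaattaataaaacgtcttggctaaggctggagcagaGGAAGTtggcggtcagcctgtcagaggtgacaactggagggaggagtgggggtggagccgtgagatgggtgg
Ptgs2: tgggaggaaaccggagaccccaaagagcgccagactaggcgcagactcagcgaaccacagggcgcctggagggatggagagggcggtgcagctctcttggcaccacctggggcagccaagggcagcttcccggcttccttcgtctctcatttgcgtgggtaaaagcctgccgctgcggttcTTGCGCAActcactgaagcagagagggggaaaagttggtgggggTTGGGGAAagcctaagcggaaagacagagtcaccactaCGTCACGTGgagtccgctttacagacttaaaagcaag
Hpgds: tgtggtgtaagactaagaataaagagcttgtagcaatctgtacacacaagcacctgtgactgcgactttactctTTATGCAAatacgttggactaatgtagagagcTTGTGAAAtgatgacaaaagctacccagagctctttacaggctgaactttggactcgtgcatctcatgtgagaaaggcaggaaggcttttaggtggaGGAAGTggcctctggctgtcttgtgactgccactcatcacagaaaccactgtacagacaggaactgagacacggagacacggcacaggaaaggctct
RefSeq promoters were found for 8 of the 10 genes, and 8 motifs were searched on both strands. The Ptgs1 and Hpgds promoters each held the PU.1 letters GGAAGT, which were in 23.8% of the 32851 promoters of this length. The Ptgs2 promoter held the E-box CACGTG, found in 7.15% of promoters, overlapping the short cAMP response element TGACG (read here on the other strand), found in 20.8%. It also held 2 matches to the C/EBP letters TTNNGNAA, which were in 40.7% of promoters and also in those of Hpgds, Hpgd, Ptger2 and Ptges. The Ptges promoter held the STAT6 letters TTCNNNNGAA, found in 6.95% of promoters and overlapping a C/EBP match, and the Hpgd promoter held the TATA box TATAAA, found in 13.6%. No match to AP-1 (TGANTCA, in 7.81% of promoters) or to NF-kB (in 8.46%) was in any of the 8 windows, and the Alox5 and Ptger4 windows held none of the 8 motifs. These are matches of letters and not binding sites.

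Ptgs1, which encodes the constitutive cyclooxygenase COX-1, was a macrophage gene in these cells and was higher in tumoural than in LP macrophages. Its log2 RPKM was 5.78, 5.49 and 5.69 in LP MHCIIhi macrophages and 7.20, 7.17 and 7.11 in their tumoural counterparts. In MHCIIlow macrophages it was 4.92, 5.01 and 4.97 in the LP and 6.88, 6.76 and 6.59 in tumours. Every tumoural macrophage library was above every LP macrophage library. The tumour effect, a log2 fold change with its standard error (SE), was 1.505 (SE 0.205, n = 3 against 3, adjusted p = 2.39e-05) in MHCIIhi cells, a 2.84-fold rise, and 1.78 (SE 0.205, n = 3 against 3, adjusted p = 2.62e-06) in MHCIIlow cells, a 3.43-fold rise. All adjusted p-values in the text are from limma with Benjamini-Hochberg adjustment over the 12878 genes. Monocytes had almost none, with a mean of 1.03 ± 0.335 RPKM (SD, n = 3) in the LP and 0.986 ± 0.238 RPKM in tumours, and their values overlapped (log2 fold change -0.03, 95% interval -0.46 to 0.39). Neutrophils were in between, at 6.86 ± 0.882 RPKM in the LP and 8.18 ± 1.05 RPKM in tumours (SD, n = 3), and these groups overlapped too. Macrophages, as the mean of both subsets in all such comparisons, exceeded monocytes of their tissue by 5.33 on the log2 scale in the LP (adjusted p = 6.82e-14) and by 7.004 in tumours (adjusted p = 4.15e-16). The tumour effect was larger in macrophages than in monocytes by 1.68 (SE 0.251, adjusted p = 0.000192). Within the LP, Ptgs1 fell by 0.69 from MHCIIhi to MHCIIlow macrophages (adjusted p = 0.044), with no overlap of the groups. With the donor number as a fixed replicate block the difference was -0.60 (adjusted p = 0.15), whereas with a random block the call held. Leaving out any 1 of the 6 libraries gave an adjusted p of 0.068 to 0.16. Over all alternatives the call was kept in 9 and lost in 9, with an adjusted p of up to 0.209. In tumours the same comparison gave -0.42 (adjusted p = 0.467). Gm43621, on the other strand, covers 3.81% of the Ptgs1 exon bases, and the library kit does not record strand.

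Ptgs2, the inducible cyclooxygenase COX-2, rose in tumours in all 4 populations, and its order of cell types was almost the opposite of that of Ptgs1. Its log2 RPKM was 7.90, 8.39 and 7.50 in LP monocytes and 10.78, 10.34 and 10.79 in tumoural monocytes. In neutrophils it was 9.49, 9.60 and 9.21 in the LP and 11.63, 11.87 and 11.71 in tumours. Among macrophages, LP MHCIIhi libraries held 6.24, 6.43 and 6.26 and LP MHCIIlow libraries 4.63, 4.27 and 4.56. In all 4 populations the lowest tumoural library was above the highest LP library. The tumour effect was 2.71 (SE 0.219, adjusted p = 6.5e-07) in monocytes, a 6.52-fold rise, and 2.30 (SE 0.219, adjusted p = 3.06e-07) in neutrophils, a 4.94-fold rise. In macrophages it was 1.97 (SE 0.219, adjusted p = 1.72e-06) in the MHCIIlow and 0.94 (SE 0.219, adjusted p = 0.00432) in the MHCIIhi subset. The effect was smaller in macrophages than in monocytes by 1.25 (95% interval of the difference -1.81 to -0.69, adjusted p = 0.00448). The difference between neutrophils and monocytes was -0.40 (95% interval -1.05 to 0.25, adjusted p = 0.465) and that between the macrophage subsets 1.03 (0.38 to 1.68, adjusted p = 0.115). These 4 rises held under every alternative tried, with adjusted p of at most 0.0237.

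Ptgs2 was the most abundant of the 10 genes in tumoural neutrophils, at 3423 ± 291 RPKM (SD, n = 3), and in tumoural monocytes, at 1607 ± 271 RPKM. LP MHCIIlow macrophages had the least, 22.6 ± 2.86 RPKM, below LP MHCIIhi macrophages at 79.5 ± 5.85 RPKM. That difference within the LP was -1.82 (adjusted p = 3.04e-05). In tumours the MHCIIlow subset was again lower in every library, by 0.79 (adjusted p = 0.0874), and with the donor number as a fixed replicate block this difference had an adjusted p of 0.0305. Monocytes exceeded macrophages of their tissue: the macrophage minus monocyte difference was -2.53 in the LP (adjusted p = 4.73e-09) and -3.78 in tumours (adjusted p = 7.83e-12). Neutrophils exceeded monocytes by 1.503 in the LP (adjusted p = 9.28e-06) and by 1.10 in tumours (adjusted p = 0.000244) on the deposited scale. With library sizes taken as the counted reads the tumour difference was -0.031, and with quantile normalization it was -0.78 (adjusted p = 0.00895), so the order of these cell types in tumours depends on the scaling. The LP difference was 0.68 (adjusted p = 0.00499) with counted reads and 0.26 (adjusted p = 0.37) with quantile normalization, so its call depends on the scaling too.

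The balance of the cyclooxygenases can be read within a library, where the scaling between libraries cancels. The log2 ratio of Ptgs2 to Ptgs1 was 7.08 to 8.96 in LP monocytes and 10.5 to 10.8 in tumoural monocytes, and 6.51 to 6.96 in LP neutrophils and 8.48 to 8.91 in tumoural neutrophils. In macrophages both genes had similar levels per length. The ratio was 0.457 to 0.938 in LP MHCIIhi and -0.0519 to 0.251 in tumoural MHCIIhi macrophages. It was -0.738 to -0.287 in LP MHCIIlow and -0.562 to 0.0765 in tumoural MHCIIlow macrophages. In monocytes and neutrophils the ratio was higher in every tumoural library, and in MHCIIhi macrophages it was lower in every tumoural library.

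**Figure D1:**
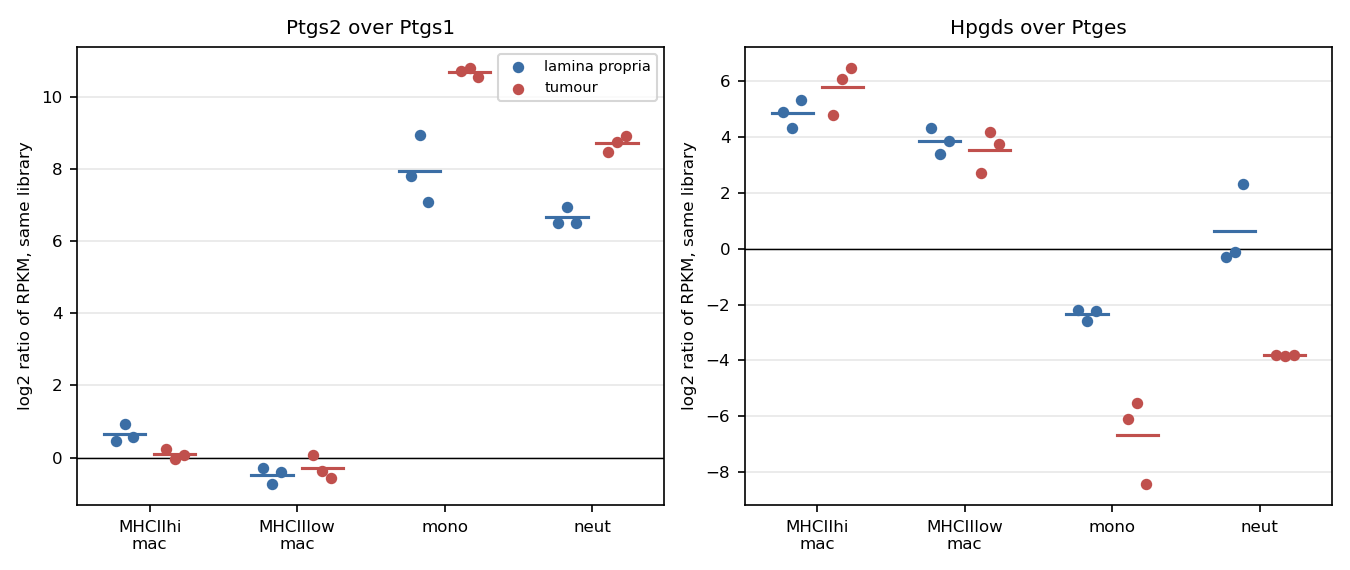
Log2 ratio of RPKM of 2 genes in the same library, Ptgs2 over Ptgs1 (left) and Hpgds over Ptges (right), for the 4 populations of LP (blue) and tumours (red). Points are libraries and bars are means of 3. Monocytes and neutrophils lie at 6.51 or above on the left, and macrophages at 0.938 or below.

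Hpgds, the haematopoietic prostaglandin D2 synthase, was a macrophage gene in both tissues, and its low level in LP monocytes and neutrophils fell further in tumours. Macrophages had 44.5 to 70.2 RPKM as group means. In LP monocytes the log2 RPKM was 1.35, 1.58 and 1.65, from 230 to 473 reads, and in tumoural monocytes -2.09, -2.19 and -4.46, from 4 to 25 reads. In neutrophils it was 1.70, 2.43 and 1.70 in the LP, from 250 to 278 reads, and -1.89, -2.05 and -1.96 in tumours, from 7 to 12 reads. The groups were far apart in both cell types. The fall was 4.44 on the log2 scale in monocytes (SE 0.391, adjusted p = 7.1e-07) and 3.91 in neutrophils (SE 0.391, adjusted p = 5.47e-07). In macrophages the tumour effect was -0.24 (95% interval -1.06 to 0.57, adjusted p = 0.741) in MHCIIhi and -0.45 (-1.27 to 0.36, adjusted p = 0.459) in MHCIIlow cells, although every tumoural library lay below every LP library of its subset. The MHCIIlow effect passed the test with log2(RPKM + 1) (-0.44, adjusted p = 0.0305) and with voom (-0.46, adjusted p = 0.00866). The effects in macrophages and in monocytes differed by 4.09 (SE 0.479, adjusted p = 1.54e-05), and by 1.40 (adjusted p = 3.01e-05) with log2(RPKM + 1). With log2(RPKM + 1) the falls were smaller, 1.74 in monocytes and 1.95 in neutrophils, and both kept an adjusted p of at most 0.031 under every alternative.

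The macrophage markers had similar sums on both sides of these Hpgds differences. All 8 macrophage markers were detected above 3 reads in every monocyte library, and their sum was 628 to 807 RPKM in LP and 739 to 801 RPKM in tumoural monocytes. In neutrophils the sum was 192 to 227 RPKM in the LP and 220 to 270 RPKM in tumours. Markers of some other cells moved with Hpgds, and those of others did not. Besides the B or plasma cell and fibroblast markers, summed dendritic cell markers were 36.4 to 43.3 RPKM in LP and 9.12 to 28.4 RPKM in tumoural monocytes, and 92.3 to 187 against 2.67 to 20.4 RPKM in neutrophils. Summed MHC class II genes were 1744 to 2346 RPKM in LP and 771 to 1201 RPKM in tumoural monocytes, and 1545 to 3467 against 441 to 855 RPKM in neutrophils. Summed endothelial markers were 16 to 20.8 RPKM in LP and 1.98 to 3.71 RPKM in tumoural neutrophils. In monocytes they overlapped, at 10.7 to 18.1 RPKM in the LP and 3.52 to 11.8 RPKM in tumours. Summed platelet markers were 21.3 to 141 RPKM in LP and 9.21 to 13 RPKM in tumoural monocytes. In neutrophils they were 7.83 to 11.4 RPKM in the LP and 3.98 to 4.94 RPKM in tumours. Summed mast cell or basophil markers did not fall in neutrophils, at 1.56 to 6.28 RPKM in the LP and 4.93 to 36.8 RPKM in tumours. Eosinophil markers overlapped there, at 21.7 to 42.2 and 20.6 to 30.8 RPKM. Both sums also overlapped in monocytes. Mast cell or basophil markers were 1.402 to 1.676 RPKM in LP and 0.419 to 4.502 RPKM in tumoural monocytes. Eosinophil markers were 1.214 to 1.98 RPKM in LP and 0.0285 to 1.255 RPKM in tumoural monocytes. Epithelial markers were higher in tumoural neutrophils, as given above, and in monocytes were 19.9 to 213 RPKM in the LP and 114 to 346 RPKM in tumours. The part of these cells in the Hpgds result was not tested. Macrophages exceeded monocytes in Hpgds by 4.50 in the LP (adjusted p = 4.97e-09) and by 8.59 in tumours (adjusted p = 2.33e-13), the latter 5.49 with log2(RPKM + 1).

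Ptges, microsomal prostaglandin E synthase, was highest in monocytes, where it was 14.8 ± 3.34 RPKM (SD, n = 3) in the LP and 14.1 ± 3.34 RPKM in tumours. Its log2 RPKM was 3.53, 4.19 and 3.86 in LP monocytes and 4.01, 3.35 and 3.99 in tumoural monocytes. These values overlapped (log2 fold change -0.08, 95% interval -1.28 to 1.12, adjusted p = 0.965). Ptges passed the test in no tumour against LP comparison, with effects of -1.17 (adjusted p = 0.174, and -1.20 with adjusted p = 0.0354 under array weights) in MHCIIhi macrophages, -0.14 (adjusted p = 0.91) in MHCIIlow macrophages and 0.55 (adjusted p = 0.498) in neutrophils. Macrophages were below monocytes by 2.20 in the LP (adjusted p = 0.0022) and by 2.78 in tumours (adjusted p = 0.000159), with no overlap of libraries. Neutrophils were below monocytes by 2.56 in the LP (adjusted p = 0.000899) and by 1.93 in tumours (adjusted p = 0.0073), where it was -3.06 with library sizes as counted reads. The LP neutrophil library of donor V, at -0.64 from 54 reads, was far below the other LP neutrophil libraries at 2.00 and 2.55, and without it the LP difference from monocytes was -1.59 (adjusted p = 0.00429). Within a library, Hpgds exceeded Ptges by 2.74 to 6.49 on the log2 scale in all macrophage libraries, whereas in tumoural monocytes Ptges exceeded Hpgds in every library, with ratios of -8.44 to -5.54. In LP monocytes the Hpgds to Ptges ratio was -2.61 to -2.18.

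**Figure D2:**
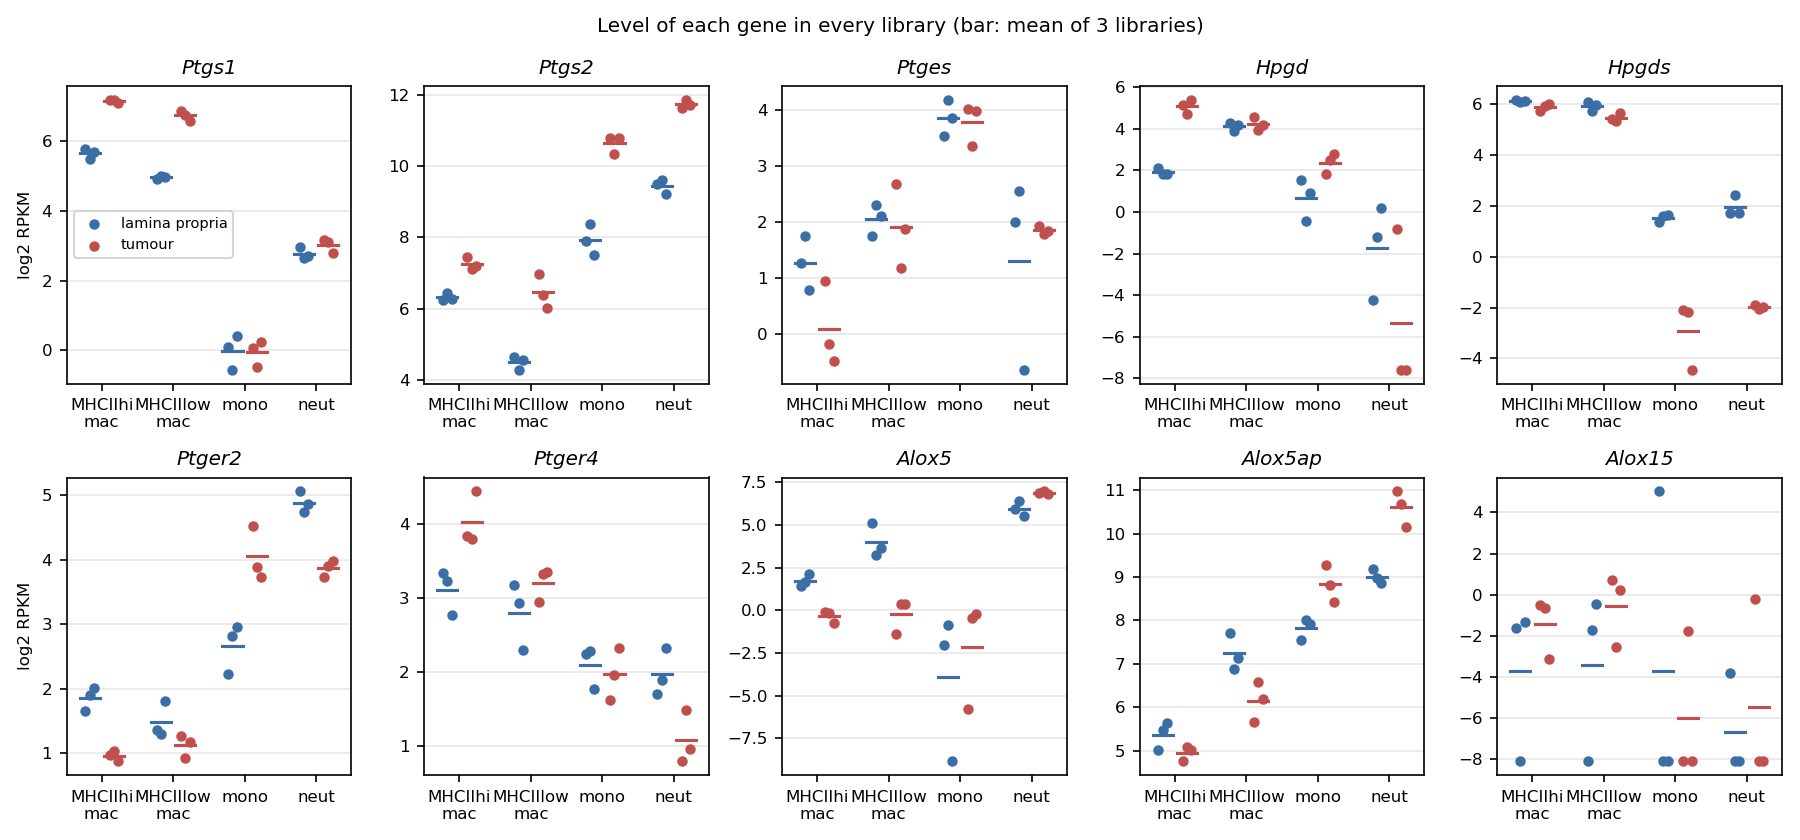
Level of each of the 10 genes, as log2 RPKM, in every library of 4 sorted populations from LP (blue) and tumours (red). Points are libraries and bars are means of 3 libraries. The lowest values of Hpgd, Alox5 and Alox15 are libraries with 0 reads.

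Hpgd, the 15-hydroxyprostaglandin dehydrogenase that inactivates prostaglandins, was highest in macrophages. Its log2 RPKM was 2.13, 1.81 and 1.83 in LP MHCIIhi macrophages and 5.13, 4.71 and 5.40 in tumoural MHCIIhi macrophages, from 3.82 ± 0.489 to 34.5 ± 8.14 RPKM (SD, n = 3). In MHCIIlow macrophages it was 4.27, 3.91 and 4.16 in the LP and 4.58, 3.96 and 4.19 in tumours. The MHCIIhi groups were well separated and the MHCIIlow groups overlapped. The MHCIIhi effect of 3.16 had a standard error of 1.23 and an adjusted p of 0.0802. The fit uses 1 spread per gene for all groups, and the SD of Hpgd was 0.179 and 0.352 in these groups but 2.25 and 3.91 in LP and tumoural neutrophils. With log2(RPKM + 1) the effect was 2.86 (adjusted p = 3.96e-07), with only the libraries compared in the fit its adjusted p was 0.00152, and with voom on reads it was 3.13 (adjusted p = 1.07e-06). The MHCIIlow effect was 0.13 (95% interval -2.44 to 2.70). The difference between the effects in the subsets was -3.03 (adjusted p = 0.52), and it passed the test with log2(RPKM + 1), with only the libraries compared and with voom.

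In monocytes, Hpgd was 1.55, -0.43 and 0.93 in the LP and 1.84, 2.50 and 2.78 in tumours, with no overlap and an effect of 1.69 (adjusted p = 0.467), or 1.195 with log2(RPKM + 1) (adjusted p = 0.00955). Macrophages were above monocytes by 2.34 in the LP (adjusted p = 0.109) and by 2.29 in tumours (adjusted p = 0.0978), and by 1.79 (adjusted p = 1.1e-05) and 2.09 (adjusted p = 8.14e-07) with log2(RPKM + 1). Neutrophils had few reads: 2, 10 and 42 in the LP, and 12, 0 and 0 in tumours. The tumour effect in neutrophils was -3.60 (SE 1.23, adjusted p = 0.03). Its size depends on the value given to 0 reads, and with log2(RPKM + 1) it was -0.35 (adjusted p = 0.41). It did not pass the test with log2(RPKM + 0.1) (-1.27, adjusted p = 0.14), quantile normalization (-2.43, adjusted p = 0.085) or array weights (-2.88, adjusted p = 0.12) either. The same held with only the libraries compared (adjusted p = 0.33) and with voom (-1.61, adjusted p = 0.47). Its adjusted p was 0.083 to 0.16 without the LP library of donor IV or V or the tumoural library of donor II or V, and the effect was -5.86 without the tumoural library of donor I. Hpgd in tumoural neutrophils was below tumoural monocytes by 7.71 (adjusted p = 2.23e-05), a size that also depends on the value given to 0 reads, and by 2.41 with log2(RPKM + 1).

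Ptger2, the gene of the prostaglandin E2 receptor EP2, moved in opposite directions in tumours: it rose in monocytes and fell in neutrophils and MHCIIhi macrophages. Its log2 RPKM was 2.23, 2.82 and 2.96 in LP monocytes and 4.53, 3.89 and 3.74 in tumoural monocytes. In neutrophils it was 5.07, 4.74 and 4.86 in the LP and 3.74, 3.91 and 3.98 in tumours. In MHCIIhi macrophages it was 1.66, 1.90 and 2.02 in the LP and 0.97, 1.04 and 0.87 in tumours. In each of these populations the tumoural and the LP libraries did not overlap. The effect was 1.38 (SE 0.221, adjusted p = 0.000432) in monocytes, -1.01 (SE 0.221, adjusted p = 0.00159) in neutrophils and -0.90 (SE 0.221, adjusted p = 0.00648) in MHCIIhi macrophages. In MHCIIlow macrophages it was -0.36 (adjusted p = 0.264). The effect in neutrophils differed from that in monocytes by -2.40 (SE 0.313, adjusted p = 0.00012), and the effect in macrophages from that in monocytes by -2.01 (SE 0.271, adjusted p = 6.48e-05). In the LP, neutrophils exceeded monocytes by 2.22 (adjusted p = 6.56e-08), or by 1.39 with library sizes as counted reads. In tumours the neutrophil minus monocyte difference was -0.18 (95% interval -0.64 to 0.29, adjusted p = 0.518), and -1.31 (adjusted p = 1.69e-05) with library sizes as counted reads. Macrophages were below monocytes by 1.00 in the LP (adjusted p = 0.00052) and by 3.01 in tumours (adjusted p = 2.02e-10). Antisense genes cover 7.51% of the 5193 Ptger2 exon bases of GENCODE M21, and the deposited values were scaled to 3684 bases, for which this share may differ.

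Ptger4, the gene of the EP4 receptor, had its highest levels in macrophages. It was 3.34, 3.23 and 2.76 in LP MHCIIhi macrophages and 3.84, 3.79 and 4.44 in their tumoural counterparts, with no overlap. The effect there was 0.91 (SE 0.276, adjusted p = 0.0234). It was lost without the LP library of donor V (0.74, adjusted p = 0.12) or the tumoural library of donor VII (0.70, adjusted p = 0.13). In MHCIIlow macrophages the effect was 0.40 (adjusted p = 0.332) and in monocytes -0.13 (adjusted p = 0.846). In neutrophils Ptger4 was 1.70, 1.89 and 2.32 in the LP and 0.79, 1.48 and 0.96 in tumours, a fall of 0.89 (SE 0.276, adjusted p = 0.0177) that did not pass the test with quantile normalization (-0.57, adjusted p = 0.17), on median-centred libraries (-0.65, adjusted p = 0.084) or with voom (-0.93, adjusted p = 0.17), and that was -1.36 with library sizes as counted reads. Without the LP library of donor V or the tumoural library of donor I or V its adjusted p was 0.051 to 0.084. Macrophages exceeded monocytes by 0.86 in the LP (adjusted p = 0.00993, and 0.0754 without the monocyte library of donor V) and by 1.65 in tumours (adjusted p = 1.39e-05). The log2 ratio of Ptger4 to Ptger2 was 2.75 to 3.57 in tumoural MHCIIhi macrophages and -2.90 to -1.43 in tumoural monocytes, against 0.744 to 1.68 and -1.19 to 0.0034 in the LP. Ttc33 and Gm15937 on the other strand share 16.5% of the Ptger4 exon bases, and reads of those stretches cannot be told apart.

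Alox5ap, the 5-lipoxygenase activating protein, rose in tumoural monocytes and neutrophils and fell in tumoural MHCIIlow macrophages. In neutrophils its log2 RPKM was 9.18, 8.98 and 8.87 in the LP and 10.99, 10.69 and 10.15 in tumours. In monocytes it was 7.55, 8.02 and 7.92 in the LP and 9.29, 8.83 and 8.42 in tumours. In MHCIIlow macrophages it was 7.71, 6.88 and 7.14 in the LP and 5.65, 6.59 and 6.18 in tumours. Within each of these populations, LP and tumoural libraries did not overlap. Summed monocyte markers were 123 to 452 RPKM in LP and 13 to 21.7 RPKM in tumoural MHCIIlow macrophages, and 57.3 to 63.9 RPKM in LP and 12.4 to 18.2 RPKM in tumoural MHCIIhi macrophages. In monocytes, where Alox5ap was higher in tumours, these markers were 412 to 549 RPKM in the LP and 658 to 892 RPKM in tumours, and their part in these results was not tested. The effect was 1.60 (SE 0.27, adjusted p = 0.000157) in neutrophils, 1.02 (SE 0.27, adjusted p = 0.0205) in monocytes and -1.10 (SE 0.27, adjusted p = 0.00491) in MHCIIlow macrophages, and -0.42 (adjusted p = 0.323) in MHCIIhi macrophages. The monocyte rise was 0.88 (adjusted p = 0.1) without the LP library of donor III, 0.79 (adjusted p = 0.12) without the tumoural library of donor I and 1.02 (adjusted p = 0.056) without that of donor II. With only the libraries compared in the fit, the adjusted p was 0.076 in monocytes and 0.07 in MHCIIlow macrophages. The effects in macrophages and in monocytes differed by -1.78 (SE 0.331, adjusted p = 0.00148). MHCIIlow macrophages exceeded the MHCIIhi subset by 1.88 in the LP (adjusted p = 0.000173) and by 1.19 in tumours (adjusted p = 0.0377). The tumoural difference was lost when 5 of the 6 libraries were left out one at a time, with 0.97 (adjusted p = 0.17) without the MHCIIlow library of donor V. Macrophages were below monocytes by 1.52 in the LP (adjusted p = 5.17e-05), where single libraries overlapped, and by 3.30 in tumours (adjusted p = 9.34e-10). Neutrophils exceeded monocytes by 1.18 in the LP (adjusted p = 0.00106) and 1.76 in tumours (adjusted p = 1.4e-05), but by -0.11 and 0.12 after quantile normalization and by 0.35 (adjusted p = 0.24) and 0.63 (adjusted p = 0.0366) with library sizes as counted reads. Gm19719 on the other strand covers 13.3% of the 1420 Alox5ap exon bases of GENCODE M21. The deposited values were scaled to 852 bases, for which this share may differ.

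Alox5, the 5-lipoxygenase itself, was highest in neutrophils, at 63.7 ± 19.5 RPKM in the LP and 119 ± 8.08 RPKM in tumours (SD, n = 3). Its log2 RPKM was 5.92, 6.40 and 5.52 in LP and 6.88, 6.99 and 6.80 in tumoural neutrophils, with no overlap and an effect of 0.94 (adjusted p = 0.662) that had an adjusted p of 0.0467 with only these libraries in the fit. In macrophages it was lower in every tumoural library. LP MHCIIlow macrophages had 5.11, 3.22 and 3.63, and their tumoural counterparts -1.37, 0.37 and 0.35. LP MHCIIhi macrophages had 1.44, 1.64 and 2.14, and tumoural ones -0.08, -0.18 and -0.72. The fall in MHCIIlow cells was 4.20 (SE 1.46, adjusted p = 0.0414), and leaving out any 1 of the 6 libraries gave an adjusted p of 0.057 to 0.14. Without the LP library of donor II, which had the highest Alox5 and the most monocyte markers, it was -3.64 (adjusted p = 0.14). In MHCIIlow cells the summed monocyte markers given for Alox5ap were also higher in the LP than in tumours. So were fibroblast markers, at 19.6 to 62 RPKM in the LP and at most 0.642 RPKM in tumours. Alox5 itself averaged 0.265 RPKM in LP monocytes, against 18.7 RPKM in LP MHCIIlow macrophages. Summed neutrophil markers were lower in the LP MHCIIlow libraries, at 23.3 to 35 RPKM against 46 to 51 RPKM in tumours. Dendritic cell markers were 9.29 to 16.9 and 3.48 to 5.40 RPKM, whereas endothelial markers were lower in the LP, at 1.07 to 8.13 against 10.6 to 17.6 RPKM. Among LP MHCIIlow libraries, that of donor II had the lowest fibroblast, dendritic cell and neutrophil sums (19.6, 9.29 and 23.3 RPKM). The part of these cells in the Alox5 result was not tested. The MHCIIhi effect was -2.07 (adjusted p = 0.374), and -1.27 (adjusted p = 0.00909) with log2(RPKM + 1).

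Monocytes had little Alox5: 25, 99 and 0 reads in the LP and 2, 84 and 92 reads in tumours. The SD of their log2 values was 4.32 and 3.14, against 0.0975 in tumoural neutrophils. Neutrophils exceeded monocytes by 9.87 in the LP (adjusted p = 1.06e-05) and 9.03 in tumours (adjusted p = 2.5e-05), and by 5.66 and 6.33 with log2(RPKM + 1). Macrophages exceeded monocytes by 6.78 in the LP (adjusted p = 0.000379), against 1.87 in tumours (adjusted p = 0.26). These were 2.79 (adjusted p = 2.45e-07) and 0.33 (adjusted p = 0.4) with log2(RPKM + 1), and the LP difference was 4.31 (adjusted p = 0.00316) without the monocyte library of donor V, which had 0 reads. The tumour effects in macrophages and in monocytes differed by -4.91 (adjusted p = 0.0953), and this difference passed the test with log2(RPKM + 1) at -2.46 (adjusted p = 0.000424). The log2 ratio of Alox5ap to Alox5 was 5.83 to 7.02 in tumoural and 2.61 to 3.66 in LP MHCIIlow macrophages, and 4.83 to 5.73 against 3.49 to 3.84 in the MHCIIhi subset.

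Alox15, the 12/15-lipoxygenase, which in mice is known from resident peritoneal macrophages and eosinophils, was barely detected in colon macrophages. It had 0 reads in 10 of the 24 libraries and at most 106 reads in 13 others. The exception was the LP monocyte library of donor III, with 2032 reads (5.04 on the log2 RPKM scale), whereas the other LP monocyte libraries had 0 reads. That library had the highest summed platelet (141 RPKM against 21.3 and 23.6) and epithelial markers (213 RPKM against 19.9 and 65.8) of its group. Such sums also occurred with few Alox15 reads. Platelet markers were 131 to 681 RPKM in the macrophage libraries, and epithelial markers 346 RPKM in the tumoural monocyte library of donor II, which had 20 Alox15 reads. Its eosinophil markers, of which only 3 of the 8 listed were measured, summed to 1.21 RPKM in the LP library of donor III, with Prg2 at 2 reads. The part of these cells in the Alox15 reads was not tested. Tumoural macrophages had 8 to 106 reads and LP macrophages 0 to 32 reads. Alox15 passed the test in none of the comparisons, except for tumoural macrophages against monocytes with only those libraries in the fit (adjusted p = 0.0385).

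**Figure D3:**
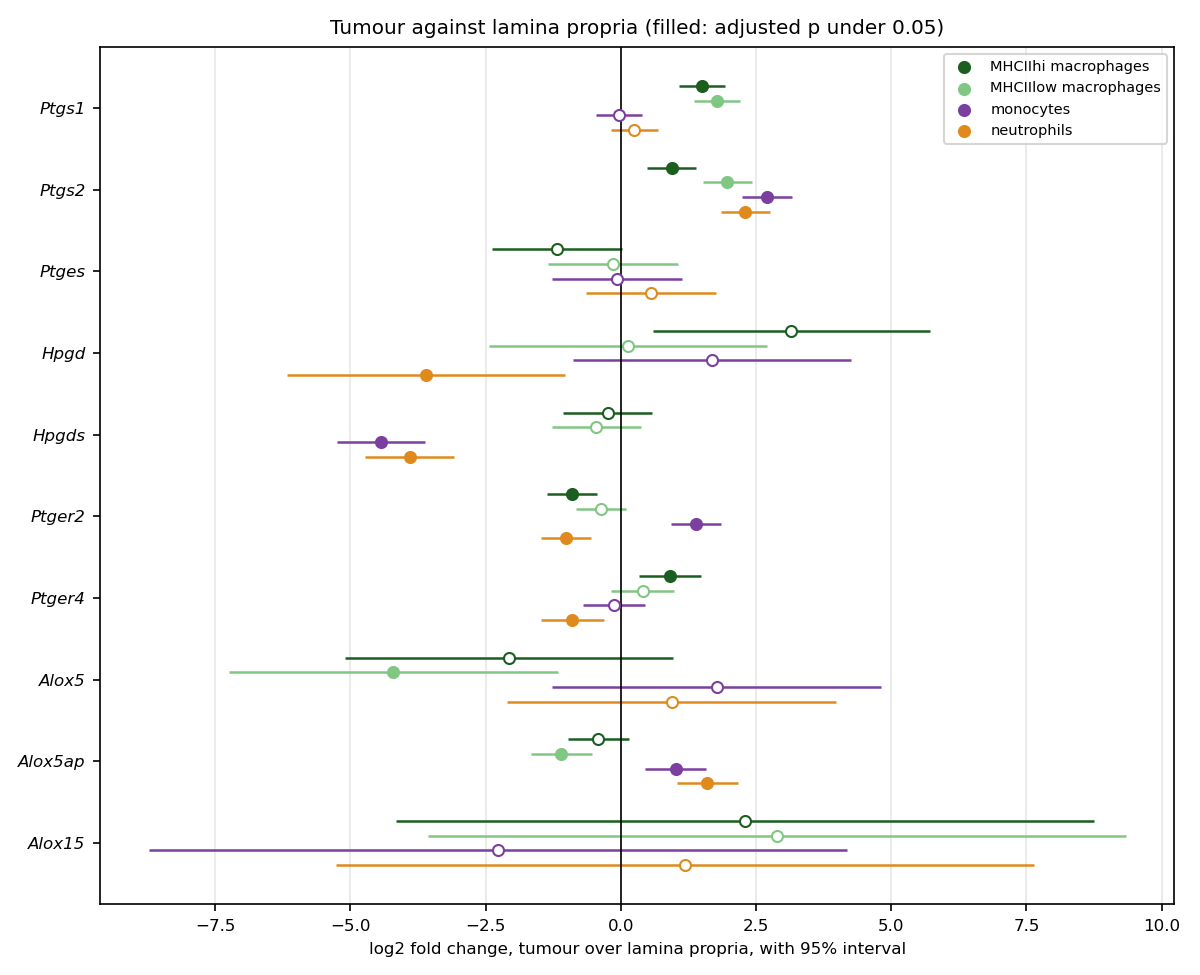
Log2 fold change of tumour over LP for the 10 genes in MHCIIhi and MHCIIlow macrophages, monocytes and neutrophils, with 95% intervals from limma (n = 3 against 3 each). Filled points have an adjusted p under 0.05. Ptgs2 is filled and to the right of 0 in all 4 populations, and Hpgds is filled and to the left in monocytes and neutrophils.

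Counted by comparison, 3 of the 10 genes rose in tumoural MHCIIhi macrophages (Ptgs1, Ptgs2, Ptger4), where 8.01% of all genes tested were higher, and 1 fell (Ptger2), where 11.5% were lower. In MHCIIlow macrophages 2 rose (Ptgs1, Ptgs2; 11.5% of all genes) and 2 fell (Alox5, Alox5ap; 11.8%). In monocytes 3 rose (Ptgs2, Alox5ap, Ptger2; 4.86%) and 1 fell (Hpgds; 4.43%). In neutrophils 2 rose (Ptgs2, Alox5ap; 13.1%) and 4 fell (Hpgd, Hpgds, Ptger2, Ptger4; 19%). The median log2 fold change of the 10 genes was 0.33, -0.01, 0.49 and 0.40 in these comparisons, in the same order, and that of all genes 0.00, 0.06, 0.00 and -0.12. These are counts of a few genes, and the 10 genes were not tested as a list.

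Between the macrophage subsets, 1 gene was higher (Alox5ap; 2.13% of all genes) and 2 lower (Ptgs1, Ptgs2; 5.57%) in MHCIIlow cells of the LP. Hpgd and Alox5 had no overlap there without passing the test, at 2.19 (adjusted p = 0.345) and 2.25 (adjusted p = 0.435). With log2(RPKM + 1) they were at 1.93 (adjusted p = 0.00013) and 1.96 (adjusted p = 0.000557). Hpgds had no overlap either, at -0.21 (adjusted p = 0.858). In tumours 1 was higher (Alox5ap; 0.567%) and none lower (0.567%). Ptges (1.82, adjusted p = 0.151), Ptger4 (-0.82, adjusted p = 0.183), Hpgd (-0.84, adjusted p = 0.953) and Hpgds (-0.42, adjusted p = 0.837) had no overlap in tumours without passing the test. So did Ptgs1 and Ptgs2, with the values given above. The share of all genes with no overlap was not counted. The medians of the 10 genes were 0.04 in the LP and -0.15 in tumours, against -0.03 and 0.00 for all genes. Compared with monocytes, LP macrophages had 4 genes higher (Ptgs1, Hpgds, Ptger4, Alox5; 12.5%) and 4 lower (Ptgs2, Ptges, Ptger2, Alox5ap; 17%). Tumoural macrophages had 3 higher (Ptgs1, Hpgds, Ptger4; 16.8%) and the same 4 lower (21.4%). The medians were 0.51 and 1.76, against -0.02 and 0.00. Neutrophils had 5 genes above monocytes in the LP (Ptgs1, Ptgs2, Ptger2, Alox5, Alox5ap; 24.1%) and 1 below (Ptges; 30.4%). In tumours 5 were above (Ptgs1, Ptgs2, Hpgds, Alox5, Alox5ap; 23.3%) and 3 below (Ptges, Hpgd, Ptger4; 34.9%), with medians of 0.80 and 0.73 against -0.24 and -0.36 for all genes. Of these, Hpgds at 0.95 (adjusted p = 0.0442) rested on 4 to 25 reads a library, was 0.17 (adjusted p = 0.49) without the tumoural monocyte library of donor V, had an adjusted p of 0.052 with the donor number as a fixed replicate block, and was -0.19 with library sizes as counted reads. Ptger4 in this comparison was -0.89 (adjusted p = 0.00939), -0.41 (adjusted p = 0.26) after quantile normalization and -2.02 with library sizes as counted reads. With those sizes the tumoural difference of Ptgs1 was 1.94, against 3.07.

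The tumour effect itself differed between macrophages and monocytes for 5 of the 10 genes (Ptgs1, Ptgs2, Hpgds, Ptger2, Alox5ap), where 9.19% of all genes differed. Between neutrophils and monocytes it differed for Ptger2 alone (9.11% of all genes). Between the MHCIIlow and MHCIIhi macrophages it differed for none of the 10 by limma (1.46% of all genes), with 1 gene, Ptgs2, at an unadjusted p under 0.05 and 1, Hpgd, passing with voom. Comparisons that share a group, such as those with the same monocytes, are not independent of each other.

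**Figure D4:**
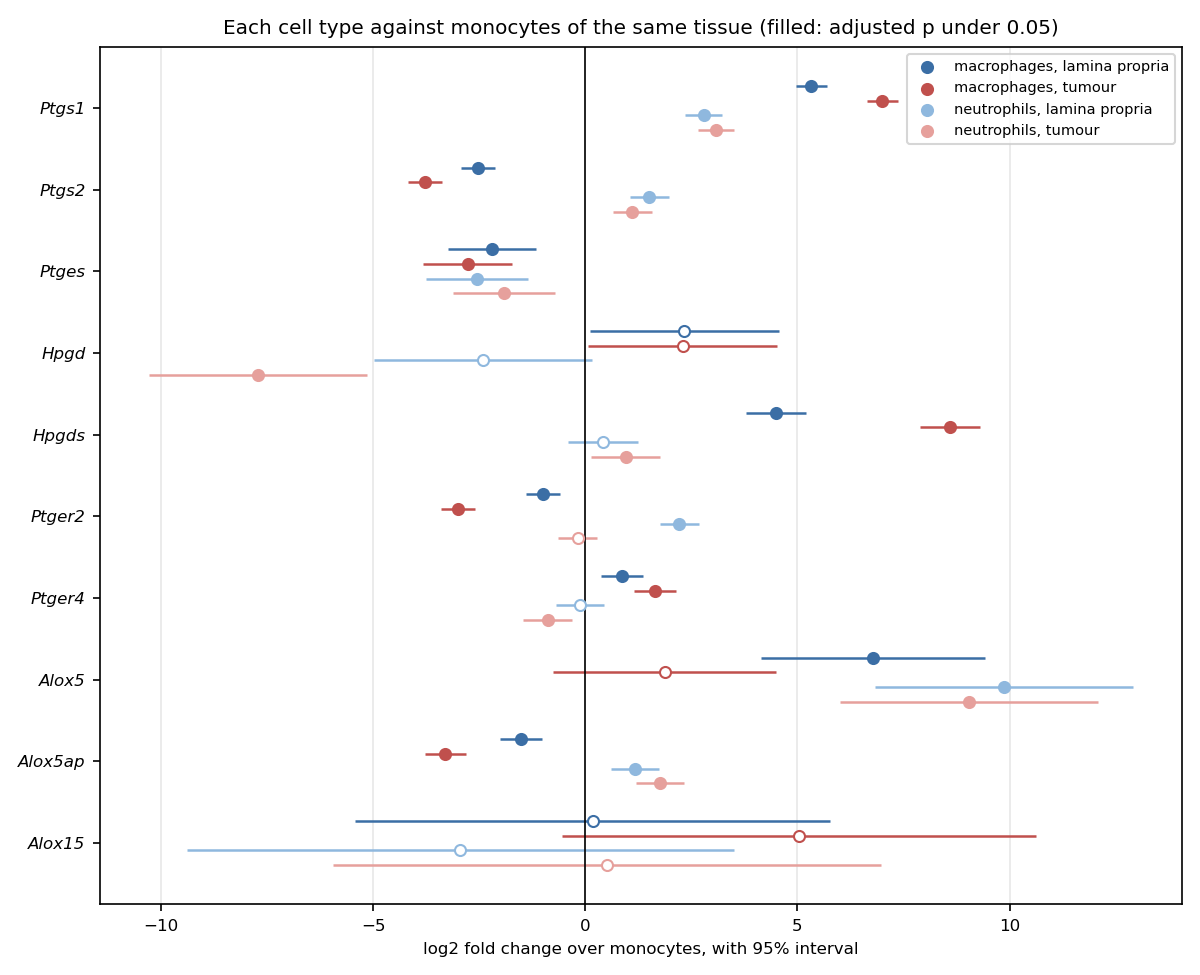
Log2 fold change of macrophages (mean of both subsets) and of neutrophils over monocytes of the same tissue for the 10 genes, with 95% intervals from limma. Filled points have an adjusted p under 0.05. Ptgs1, Hpgds and Ptger4 are to the right of 0 for macrophages, and Ptgs2, Ptges, Ptger2 and Alox5ap to the left.

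Of 54 other genes listed for the eicosanoid pathway, 44 were in the table and 34 were tested. In MHCIIhi macrophages 6 of these 34 rose and 5 fell in tumours, where 8.01% and 11.5% of all genes tested did. They included rises of the leukotriene receptor Cysltr1 (2.11), the leukotriene C4 hydrolase Ggt5 (1.58) and the prostaglandin reductase Ptgr2 (1.40), and falls of the leukotriene B4 receptor Ltb4r1 (-3.83) and the transporters Abcc1 (-1.99) and Abcc4 (-1.21), as log2 fold changes with adjusted p of at most 0.0155. In MHCIIlow macrophages 10 rose and 2 fell (11.5% and 11.8% of all genes), with rises of the lipoxin receptor Fpr2 (2.32), the leukotriene B4 hydroxylase Cyp4f18 (1.85) and Ggt5 (1.60) and falls of Abcc1 (-1.30) and the prostaglandin E synthase Ptges3 (-0.76). In monocytes 7 rose and 2 fell (4.86% and 4.43%), with rises of the phospholipases Pla2g15 (1.67) and Pla2g4a (1.54), the latter releasing arachidonic acid, and of Cyp4f18 (1.42). In neutrophils 5 rose and 2 fell (13.1% and 19%), with rises of the thromboxane synthase Tbxas1 (2.41), the prostacyclin receptor Ptgir (1.79) and Ggt5 (1.65) and a fall of Pla2g15 (-1.04). The median log2 fold change of the 34 genes was 0.22, 0.37, 0.40 and 0.14 in these comparisons, beside the medians of all genes given above.

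Between cell types, 9 of the 34 pathway genes were higher and 12 lower in LP macrophages than in monocytes (12.5% and 17% of all genes), and 9 higher and 11 lower in tumours (16.8% and 21.4%). Their medians were -0.19 and -0.15. The log2 difference of Ltb4r1 was -5.28 in the LP and -7.52 in tumours, and that of Fpr2 -3.77 and -2.85. Abcc4 was also lower in the LP (-1.80) and Ptgir in tumours (-4.96). The phospholipase Pla2g2d was at least 237-fold higher in LP macrophages than in monocytes, taking a floor of 3 reads per library for monocytes with 0 reads, and 9.23 higher on the log2 scale in tumours, where 2 of the 3 monocyte libraries were at or under 3 reads. Tbxas1 (2.36) and Pla2g15 (2.17) were also higher in LP macrophages, and Cbr1 (2.75) and Ggt5 (2.37) in tumoural macrophages. In neutrophils 9 were higher and 13 lower than in monocytes in the LP (24.1% and 30.4% of all genes), and 8 and 13 in tumours (23.3% and 34.9%), with medians of -0.38 and 0.05. The tumoural counts are near the shares of all genes. Cyp4f18 (3.71 in the LP, 2.58 in tumours) and Ggt5 (4.44 and 4.72) were higher in both, and Ggt1 was at least 338-fold higher in the LP against the same floor and 9.09 higher in tumours, where 1 of the 3 monocyte libraries was at 0 reads. The receptor Cysltr1 was lower in both (-3.60 and -2.97), as was Akr1b3 (-2.26 and -3.19), with Ptgr1 in the LP (-3.35) and Dpep2 in tumours (-3.30). Between the macrophage subsets, 1 was higher and 5 lower in LP MHCIIlow cells (2.13% and 5.57% of all genes), among them Cyp4f18 (-2.32), Ltb4r1 (-2.31) and Pla2g7 (-1.32). In tumours 2 were higher and 1, Pla2g15 (-0.84), lower (0.567% of all genes each). The medians were -0.06 and 0.30. The tumour effect on a pathway gene was higher in MHCIIlow than in MHCIIhi macrophages for 4 genes and lower for none (1.46% of all genes differed, in either direction). Against monocytes it was higher for 3 and lower for 7 in macrophages (9.19%), and higher for 2 and lower for 3 in neutrophils (9.11%). The medians of these differences were 0.15, -0.50 and -0.25, against 0.06, 0.03 and -0.12 for all genes.

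The genes most like each member were ranked by Pearson r of log2 RPKM over the 24 libraries, among 7269 genes. These values describe the same 8 groups and libraries for every gene and carry no test. Ptgs2 was most like Il1b (r = 0.971), the gene of interleukin-1 beta, then Osm (0.964) and Nfkbie (0.963). Ptgs1 was most like Cd63 (0.946), Creg1 (0.945) and Txndc16 (0.935). Hpgds was most like Mfsd11 (0.954), Pianp (0.948) and Tmed1 (0.944), and Hpgd most like Ankrd10 (0.946), Eef2kmt (0.942) and Dtx3 (0.938). Ptger2 was most like Lrrfip1 (0.951), Fam110a (0.944) and Srgn (0.942), and Ptger4 most like Mcm3 (0.919), Hsd17b4 (0.915) and Frmd4b (0.908). Alox5ap was most like Cdkn2d (0.969), Rhoa (0.966) and Mgst1 (0.966). The values were lower for Alox5, with Eif5 (0.886), Ndfip1 (0.869) and Gas5 (0.866), and for Ptges, with Pitpna (0.84), Fhod1 (0.823) and Inf2 (0.798). For Alox15, with Cttn (0.731), Dcaf15 (0.606) and Ints4 (0.602), the value turns on the 1 library with 2032 reads.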

How the data were processed

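Myeloid populations sorted from pooled colons were sequenced with a modified SMART-Seq v2 protocol, which does not record strand. Per the labels, the processing notes name STAR 2.3, featureCounts 1.5 and edgeR on GRCm38 (mm10). The deposited values are log2 RPKM per gene, made by the authors from read counts with a small prior count. From them, whole reads were recovered for 100% of values (within 0.001 reads), with a prior of 0.25 reads. Of the recovered values from 1 to 20 reads, 65.1% were even, so reads may not be independent counts. Why was not tested. Depth was 12838061 to 41718078 reads per library.

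The deposited log2 RPKM was fitted with limma 3.58.1 in R 4.3.3 (lmFit and eBayes with trend, 8 group means over 24 libraries, genes averaging 1 RPKM or more in some group), with Benjamini-Hochberg adjustment within each of 13 comparisons and a threshold of 0.05. With 3 libraries against 3, an exact permutation test cannot go below 0.1. The fit was tested on simulated data. Fold changes are differences of log2 RPKM. A gene with no library above 3 reads in a group gives a bound. All 10 members were tested in each comparison, and those past the threshold are named, but not every other value is given. Of the listed pathway genes, the 3 largest rises and falls past the threshold are named. These had no overlap of libraries and 5 RPKM or more on average in the higher group. The most like genes were taken among genes averaging 5 RPKM or more in some group, without predicted genes and receptor segments. The members and lists were chosen with earlier results of these data known. Gene annotation was GENCODE M21 and promoters were RefSeq (GRCm38.p6).

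The labels give each library a donor number. Since each library was a pool of mice, libraries of one tissue with the same number were taken to share a pool, which the labels do not say outright. Their deviations from the group means correlated by -0.0661 to 0.255 (median 0.0169, 29 pairs), and p-values measure the spread between these libraries, which may be technical in part. Alternatives were log2(RPKM + 1), log2(RPKM + 0.1), no filter, a filter at 5 RPKM, quantile normalization, median-centred libraries, only the libraries compared, array weights, tissue and donor number as a random or fixed block, voom on recovered reads, leaving out each library, and, chosen after seeing the data, library sizes as counted reads.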

Additional observations from a re-analysis of the deposited data

Results flagged for a closer look

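The tumour effect differed between cell types for several genes, as log2 differences tested in limma. Between macrophages and monocytes it differed by 4.09 for Hpgds (adjusted p = 1.54e-05), by 1.68 for Ptgs1 (adjusted p = 0.000192), by -1.25 for Ptgs2 (adjusted p = 0.00448), by -1.78 for Alox5ap (adjusted p = 0.00148) and by -2.01 for Ptger2 (adjusted p = 6.48e-05). Between neutrophils and monocytes it differed by -2.40 for Ptger2 (adjusted p = 0.00012). Each of these passed the test under every alternative that was run.

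In other pairs of populations every tumoural library was higher in one and lower in the other, and the difference was not tested. For Alox5 the effect in neutrophils exceeded that in MHCIIhi macrophages by 3.01 and that in MHCIIlow macrophages by 5.15. For Alox5ap it exceeded that in MHCIIlow macrophages by 2.70. For Ptger4 the effect in MHCIIhi macrophages exceeded that in neutrophils by 1.81.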

How the results depend on the processing

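Of 57 member results past the threshold over the 13 comparisons, 42 kept their direction and call under every alternative. Of 1113 values of these results under alternatives, 69 lost the call and 4 changed sign: Ptgs2 between tumoural neutrophils and monocytes (-0.78 after quantile normalization, -0.031 with library sizes as counted reads), Alox5ap between LP neutrophils and monocytes (-0.11 after quantile normalization) and Hpgds between tumoural neutrophils and monocytes (-0.19 with library sizes as counted reads). Library sizes as counted reads lowered the median of all genes to -1.07 (LP) and -1.49 (tumour) between neutrophils and monocytes and to -0.59 between tumoural and LP neutrophils. The number of members past the threshold stayed within 1.5 times for 9 comparisons. Between LP MHCIIlow and MHCIIhi macrophages it was 5 with log2(RPKM + 1), log2(RPKM + 0.1) and voom, against 3. Between the tumoural subsets it was 0 with only the libraries compared and 2 with array weights and with the fixed replicate block, against 1. For the difference of the effect between these subsets it was 2 with log2(RPKM + 1), and 1 with only the libraries compared, array weights and voom, against 0. For the difference between neutrophils and monocytes it was 2 with log2(RPKM + 1), log2(RPKM + 0.1) and library sizes as counted reads, against 1. Leaving out each library gave 0 to 2 members between the tumoural subsets, 0 to 1 for the difference between the subsets and 1 to 2 for that between neutrophils and monocytes.

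With tissue and donor number as a random replicate block (estimated correlation 0.0476) no call of a member was lost, and the fixed replicate block took away the LP difference of Ptgs1 between macrophage subsets and the Hpgds difference between tumoural neutrophils and monocytes, and added Ptgs2 between the tumoural subsets. The cause of these changes was not tested. The few reads of Alox15, of Hpgd in neutrophils, of Alox5 in monocytes and of Hpgds in tumoural monocytes and neutrophils limit what can be said of their sizes.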
